A study of Mus musculus with 6 samples.

Results

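Ewsr1, Taf15, Tardbp, Sfpq, Nono, Matr3 and Pspc1 encode nuclear RNA-binding proteins, and they were followed here in hippocampal RNA from 3 control and 3 L-DL KD-labelled libraries. The 7 genes were chosen by symbol and matched to their Ensembl identifiers, 7 of the 52550 gene identifiers in the count table, and their splicing events were found by gene symbol, 37 of the 40961 events listed. By the study's methods, all animals were male wild-type C57BL/6 J mice whose CA1 areas received adeno-associated virus at 8 weeks of age, with a control shRNA in one group and 4 tandem shRNAs against L-DL, the long isoform of hnRNP D-like, in the other. The L-DL shRNAs were driven by H1 promoters, the virus carried a CamkIIα-driven zsGreen marker, and RNA came from hippocampal tissue, so that cells the virus did not reach were sequenced as well. The labels of the second group conflict: title and genotype give a knockdown (KD), but the description gives hnRNP DL-/-, a knockout, and the control labels say only wild type.

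Ewsr1 and Taf15 belong to the FET family, whose members bind RNA and DNA and take part in transcription and splicing. Tardbp encodes TDP-43, which represses the use of cryptic exons and limits its own level through the end of its own transcript. Nono, Sfpq and Pspc1 encode related proteins that assemble on the long non-coding RNA Neat1 into paraspeckles, nuclear bodies that can hold back RNA, and Matr3 encodes matrin 3, an RNA-binding protein of the nuclear matrix that also acts as a splicing repressor. Several of these proteins form aggregates or carry mutations in amyotrophic lateral sclerosis and frontotemporal dementia.

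The short exons and the exonic intron on which the splicing results turn are shown first, as they read in the mouse transcripts of GENCODE vM21 (build GRCm38). The lines for Ewsr1 show the only event of the 7 genes with an unadjusted p under 0.05 in edgeR's model of all 6 libraries, an 18-nt exon at chr11:5091460-5091477 on the minus strand. It is exon 5 of the 18 exons of Ewsr1-205 and is coding throughout. Capitals mark the exon, and 24 bases of each neighbouring exon are in lower case.
Ewsr1 with the exon: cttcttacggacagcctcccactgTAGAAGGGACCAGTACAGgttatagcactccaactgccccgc
Ewsr1 without the exon: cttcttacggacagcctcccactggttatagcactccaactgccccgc

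Ewsr1 and Taf15 share a 35-nt coding exon whose length is not a multiple of 3, so that leaving it out shifts the reading frame. The exon lies at chr11:5079485-5079519 (minus strand, exon 9 of 17 of Ewsr1-203) and chr11:83497262-83497296 (plus strand, exon 8 of 16 of Taf15-201). Capitals mark the 26 of 35 positions at which both genes have the same base.
Ewsr1: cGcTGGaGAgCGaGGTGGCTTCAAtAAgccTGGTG
Taf15: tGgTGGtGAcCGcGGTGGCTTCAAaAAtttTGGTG

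Taf15 also holds an intron inside a coding exon. The segment is 120 nt at chr11:83504711-83504830, inside exon 15 of 16 of Taf15-201, which encodes the part of the protein rich in arginine and glycine. Its capitals mark the first and last 2 bases, the usual ends of an intron.
Taf15: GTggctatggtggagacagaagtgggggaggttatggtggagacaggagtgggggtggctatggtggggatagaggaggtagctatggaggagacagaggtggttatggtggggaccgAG

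Each library held between 16052529 and 17913064 reads counted on genes, and the splicing table between 6760349 and 7939931 junction counts. Hnrnpdl, the targeted gene, had 176, 183 and 171 CPM (counts per 1000000 reads of a library, with library sizes scaled by edgeR's TMM method) in the controls and 217, 150 and 173 CPM in the other group. On the log2 scale it changed by 0.03 (standard error 0.12, adjusted p = 0.898 by edgeR's quasi-likelihood test), so its total count, over all isoforms, did not measurably fall. This total, taken in whole tissue, shows neither a knockdown nor a knockout of the long isoform. The study measured its knockdown as L-DL protein, by immunoblot. The second group is named here by its KD label only. The labels give no batch, and nothing in them says from how many animals a library was made, so the p-values measure the spread between these libraries. Counting only markers past the test, all 8 neuronal markers were lower in the L-DL KD-labelled libraries, with a summed level of 2608 to 3399 CPM against 4875 to 5200 CPM in the controls. All 8 microglial markers were higher, at 1974 to 2424 CPM against 899 to 1126 CPM. Of 8 astrocyte markers 2 were higher and 3 lower, 2 of 8 oligodendrocyte markers and 5 of 8 endothelial markers were higher, and none of 6 choroid plexus markers passed. The summed choroid plexus markers differed by library, from 408 to 4388 CPM in the controls and from 20.7 to 4932 CPM in the other group. In whole tissue, fewer cells of a type and less RNA per cell cannot be told apart, and the part of these shifts in the results below cannot be told apart from the group.

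Taf15 was 1.17-fold and Nono 1.18-fold higher in the L-DL KD-labelled libraries, Matr3 was 1.27-fold lower, and Ewsr1, Tardbp, Sfpq and Pspc1 did not pass the test. These 3 of 7 genes had an adjusted p under 0.05 (edgeR's quasi-likelihood model, p-values adjusted by Benjamini-Hochberg over all genes tested), where 30.5% of the 17621 genes tested did. Of the 7 genes 2 were called higher, beside 15.6% of all genes tested, and 1 was called lower, beside 15.0%. In 4 of the 7 genes the groups did not overlap in CPM, as in 47.2% of all genes tested. The median log2 fold change was 0.13 over the 7 genes and 0.01 over all genes tested. With counts this close to the background, no shift particular to these genes can be read from them.

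**Figure D1:**
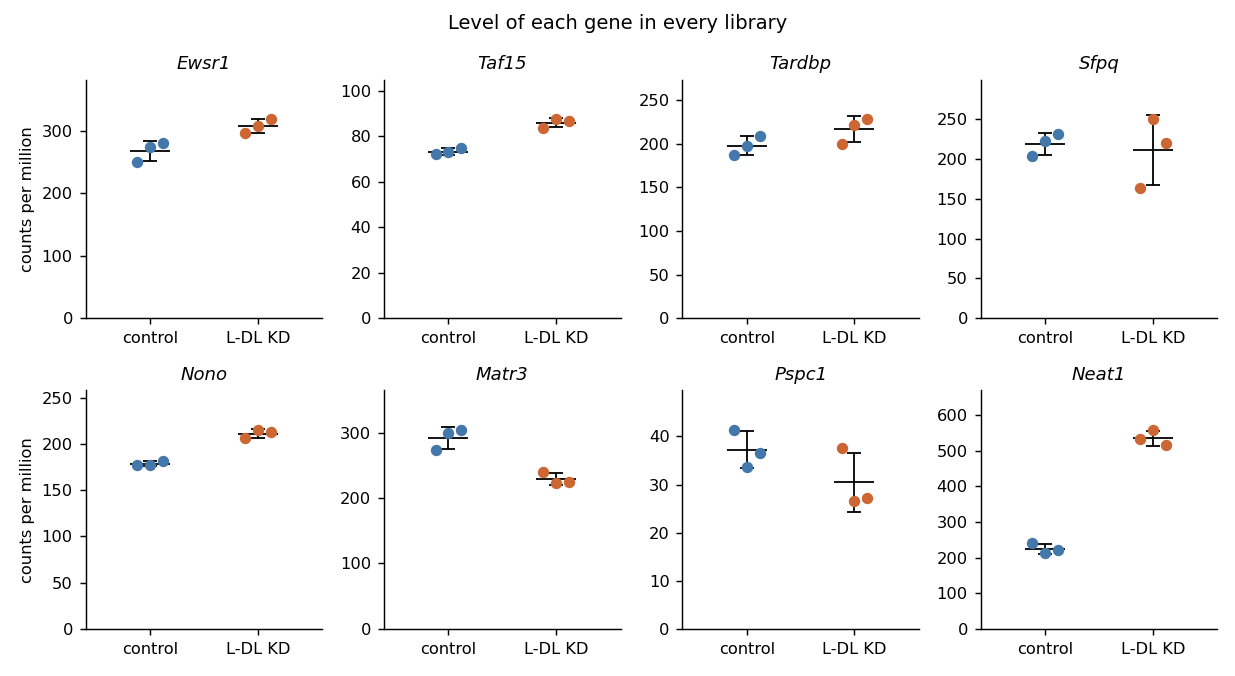
Level in CPM (linear axis from 0) of the 7 genes and of Neat1 in each library, with 3 points a group and the mean ± SD as a bar. Taf15, Nono, Ewsr1 and Neat1 lay higher and Matr3 lower in all 3 L-DL KD-labelled libraries than in all controls, while the groups overlapped for Tardbp, Sfpq and Pspc1.

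Of the FET genes, Taf15 (ENSMUSG00000020680, chr11:83473086-83506743) had 72.1, 73.0 and 74.9 CPM in the controls and 83.8, 87.4 and 86.9 CPM in the L-DL KD-labelled libraries. All 3 of the latter lay above all controls. By edgeR, the log2 change came to 0.23 (standard error 0.06, adjusted p = 0.0235). This call was lost without any 1 of the controls or without L-DL KD replicate 2, with adjusted p-values from 0.0604 to 0.0900. It was also lost with the replicate number as a block (adjusted p = 0.0563) and with no filter on low counts (adjusted p = 0.0630).

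Ewsr1 (ENSMUSG00000009079, chr11:5069689-5099266) had 250.1, 273.4 and 280.8 CPM in the controls and 295.5, 306.9 and 317.8 CPM in the L-DL KD-labelled libraries. Its groups did not overlap either, but they lay closer together relative to their spread, with a log2 fold change of 0.19 (standard error 0.07, adjusted p = 0.0698). It passed the threshold when libraries were scaled by size alone (adjusted p = 0.0438) and without L-DL KD replicate 1 (adjusted p = 0.0443). Exons of Ewsr1 overlap those of Rhbdd3 on the opposite strand, which had 1488 counts over the 6 libraries, and whether counting used strand was not given in the sources used here.

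Tardbp (ENSMUSG00000041459, chr4:148612382-148627019) had 187.3, 196.8 and 208.5 CPM in the controls and 199.8, 221.7 and 227.5 CPM in the L-DL KD-labelled libraries. The lowest library of the second group lay inside the control range. The fold change, in log2, was 0.13 (standard error 0.08, adjusted p = 0.232), which did not pass the test. The last exon of Tardbp overlaps Masp2 on the opposite strand, which had 137 counts over the 6 libraries.

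Among the paraspeckle proteins, Nono (ENSMUSG00000031311, chrX:101429318-101448591) had 177.4, 176.9 and 181.5 CPM in the controls and 205.9, 214.7 and 212.2 CPM in the L-DL KD-labelled libraries. The groups lay apart by more than the range within either. On the log2 scale the difference was 0.24 (standard error 0.06, adjusted p = 0.0167), and without any 1 of the controls the adjusted p was 0.0513 to 0.0715.

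Sfpq (ENSMUSG00000028820, chr4:127021324-127037013), the usual partner of Nono, had 203.1, 221.8 and 231.2 CPM in the controls and 162.9, 249.4 and 220.2 CPM in the L-DL KD-labelled libraries. Both the lowest and the highest value belonged to the second group. The change in log2 level was -0.05 (standard error 0.14, adjusted p = 0.814), and without L-DL KD replicate 1 it was 0.11 (adjusted p = 0.360), so that its sign rested on that library. Its exons overlap Gm12940 on the same strand, a processed transcript with 3236 counts over the 6 libraries.

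Pspc1 (ENSMUSG00000021938, chr14:56720710-56778316) had 41.3, 33.6 and 36.6 CPM in the controls and 37.5, 26.5 and 27.3 CPM in the L-DL KD-labelled libraries. Replicates 2 and 3 of the second group lay below all controls and replicate 1 lay among them. The log2 difference between the groups was -0.29 (standard error 0.15, adjusted p = 0.184), and without L-DL KD replicate 1 it was -0.46 (adjusted p = 0.00954). Without L-DL KD replicate 2 it was -0.19 (adjusted p = 0.433), and with the choroid plexus markers as a covariate -0.14 (adjusted p = 0.368), so that its size rested on single libraries.

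Matr3 (ENSMUSG00000037236, on chromosome 18) had 273.1, 298.6 and 303.6 CPM in the controls and 239.7, 223.5 and 225.0 CPM in the L-DL KD-labelled libraries. All controls lay above all libraries of the second group, and the mean CPM fell by 21.4%. In log2, the estimate was -0.35 (standard error 0.07, adjusted p = 0.00752), and it was the only one of the 7 genes to pass the test whichever single library was left out, with adjusted p-values from 0.00437 to 0.0372. A pseudogene, Matr3-ps2, had 0 counts, and exons of Gm28285 overlap Matr3 on the same strand.

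Since 3 libraries a group were compared, the two-sided exact permutation test on log2 CPM could not go below 0.1. It gave that value for Ewsr1, Taf15, Nono and Matr3, 0.2 for Tardbp, 0.3 for Pspc1 and 0.8 for Sfpq.

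Divided by the length of all annotated exons of the gene, the control levels were 46.1 ± 3.02 CPM per kilobase (SD, n = 3) for Sfpq, 45.4 ± 2.72 for Ewsr1, 40.8 ± 0.572 for Nono, 28.7 ± 1.61 for Matr3, 25.3 ± 1.37 for Tardbp, 25.1 ± 0.483 for Taf15 and 6.49 ± 0.673 for Pspc1. Sfpq and Ewsr1 overlapped, as did Tardbp and Taf15, and every other neighbouring pair in this order lay apart. In the L-DL KD-labelled libraries the levels were 51.9 ± 1.89 CPM per kilobase (SD, n = 3) for Ewsr1, 48.2 ± 1.03 for Nono, 44.5 ± 9.27 for Sfpq, 29.5 ± 0.666 for Taf15, 27.8 ± 1.88 for Tardbp, 22.6 ± 0.880 for Matr3 and 5.31 ± 1.07 for Pspc1. Matr3, which had ranked above Tardbp and Taf15 in every control, lay below both in every library of the second group. There, Nono overlapped Sfpq and Taf15 overlapped Tardbp, and the other neighbours in the order lay apart. Annotated exons add up to more than the main transcript of a gene with many isoforms, from 2919 nt for Taf15 to 10158 nt for Matr3, and isoform use was not taken into account.

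By the root mean square difference of mean-centred log2 CPM over the 6 libraries, the gene most like Taf15 among all tested was Nono, and the one most like Nono was Taf15, with a difference of 0.0089 in both directions. The most alike gene was Rad17 for Ewsr1 (0.0236), Rb1 for Tardbp (0.0213), Adipor2 for Sfpq (0.0432), Med23 for Matr3 (0.0155) and Pyurf for Pspc1 (0.0276). These likenesses describe 6 libraries in which the group is part of the pattern, and they were not tested.

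Of the other paraspeckle components, a list of 24 genes, Neat1 stood furthest out. Neat1, the gene of the RNA scaffold of the paraspeckle, had 240.8, 213.0 and 222.4 CPM in the controls and 532.9, 558.0 and 515.8 CPM in the L-DL KD-labelled libraries. The 3 libraries of the second group all lay far above the controls, with a log2 fold change of 1.25 (standard error 0.07, adjusted p = 8.4e-05). The call held whichever single library was left out. By the study's methods, mRNA was enriched with oligo(dT) beads, and these gene counts do not tell isoforms of Neat1 apart. Whether the isoform that serves as the scaffold changed was not tested.

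Of the 24 listed genes 6 passed the test, 3 in each direction, and the median log2 fold change of the list was -0.02, beside 0.01 over all genes tested. The share called was below the 30.5% of all genes. Besides Neat1, Hnrnpul1 (log2 fold change 0.26, adjusted p = 0.0131) and Hnrnpk (0.23, adjusted p = 0.0321) were higher, both heterogeneous nuclear ribonucleoproteins. Nudt21, a subunit of the cleavage factor that helps to choose the polyadenylation site of many transcripts and of Neat1 itself, was lower (-0.37, adjusted p = 0.00369), as were the RNA-binding proteins Rbmx (-0.27, adjusted p = 0.0129) and Celf6 (-0.52, adjusted p = 0.0267). Nudt21 had 70.1, 66.7 and 69.4 CPM in the controls and 52.5, 53.2 and 53.7 CPM in the L-DL KD-labelled libraries, so that the groups lay apart by more than the range within either. Its call held whichever single library was left out, while Hnrnpk passed in only 1 of the 6 such fits, Celf6 in 3, Hnrnpul1 in 4 and Rbmx in 5. Hnrnpk also lost its call with the choroid plexus markers as a covariate (adjusted p = 0.0583), with the replicate number as a block (0.0649) and with no filter on low counts (0.0627).

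**Figure D2:**
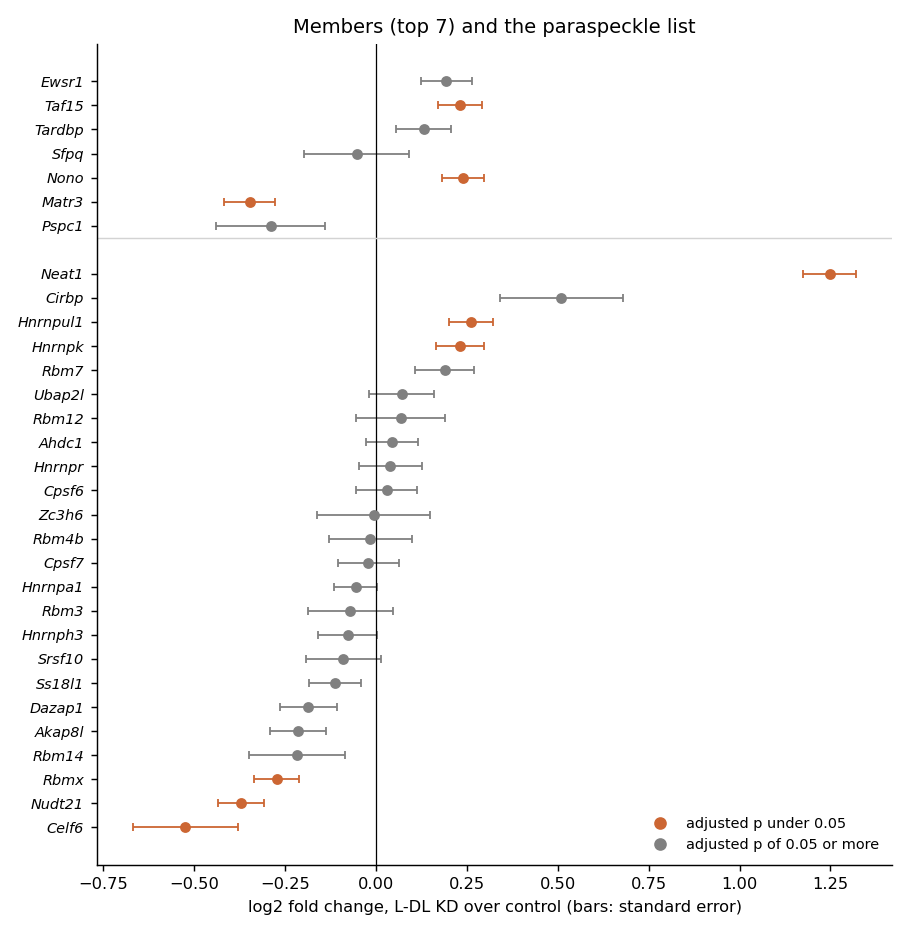
Log2 fold change of the L-DL KD-labelled libraries over the controls, with its standard error, for the 7 genes (top) and the 24 genes of the paraspeckle list ordered by value, coloured by the adjusted p. Neat1 stood apart at 1.25, and the other genes past the test lay between -0.52 and 0.26.

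Splicing was compared by PSI, the share of the inclusion form among the inclusion and skipping forms of an event. It was computed from junction counts for inclusion and for skipping, each divided by the effective length of that form. It is not a share of all transcripts of a gene. The 37 events were 20 skipped exons, 7 alternative 3′ splice sites, 5 alternative 5′ splice sites and 5 retained introns, with 14 in Tardbp, 10 in Matr3, 7 in Taf15, 3 in Ewsr1, 2 in Pspc1 and 1 in Nono. No event was listed for Sfpq. They named 34 distinct segments, so events of 1 gene shared reads. Of the 37 events 27 had enough counts to be tested, 2 had a mean under 20 counts a library, and 8 had under 1 count of a form on average.

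None of the 27 tested events passed the adjusted test (edgeR's quasi-likelihood model, Benjamini-Hochberg adjusted), where 0.255% of the 18829 events tested did, and limma also called none. At an unadjusted p under 0.05 there was 1 of 27, beside 13.3% of all tested events, and limma gave 2. The groups did not overlap in PSI in 1 of 27, beside 18.4%. The median absolute change in PSI was 0.013 over the 27 events and 0.030 over all tested events. The libraries in the splicing table carry no replicate number, and they are given in table order.

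**Figure D3:**
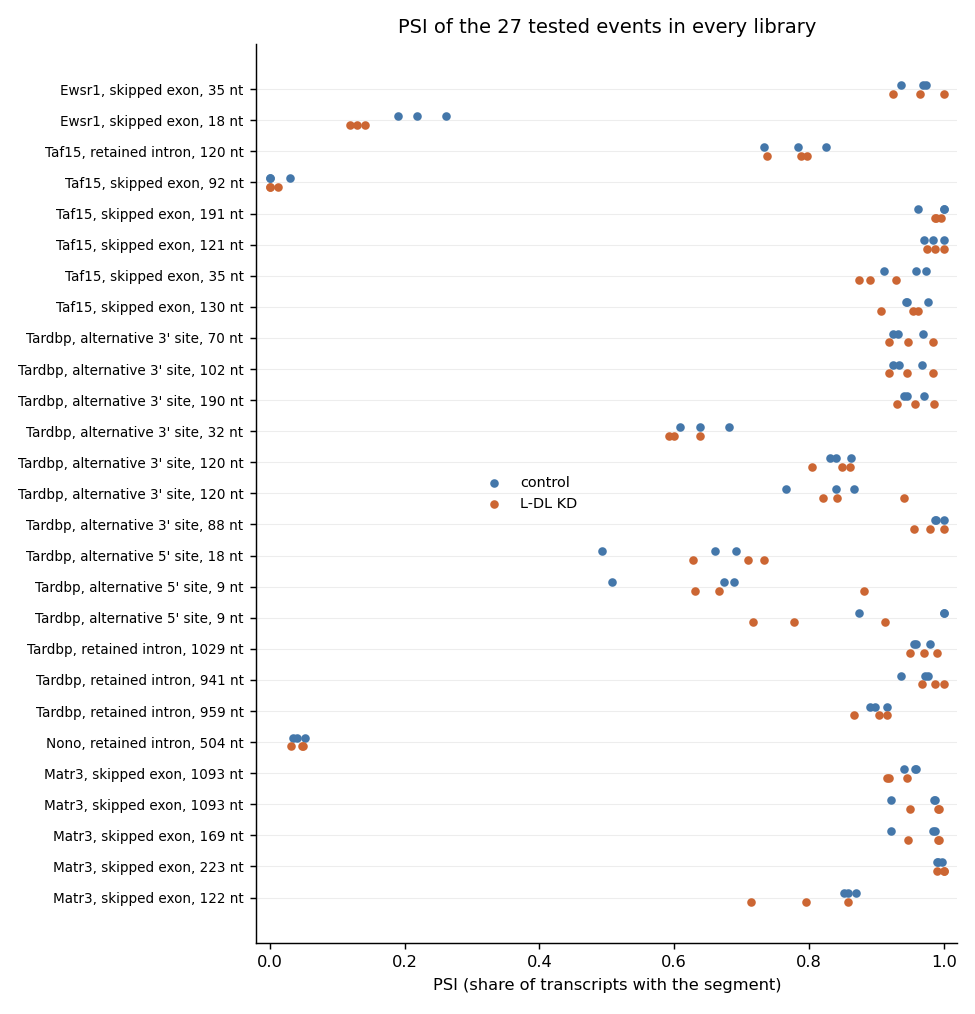
PSI (from 0 to 1) of each of the 27 tested events, with 3 control libraries (upper points) and 3 L-DL KD-labelled libraries (lower points) on each line. The Ewsr1 18-nt exon is the line on which the groups lay apart, at 0.191 to 0.262 against 0.119 to 0.141.

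The event past the unadjusted threshold was the 18-nt Ewsr1 exon printed above, whose length is a multiple of 3. Its PSI was 0.262, 0.191 and 0.218 in the controls and 0.141, 0.119 and 0.129 in the L-DL KD-labelled libraries. Every library of the second group had a lower PSI than every control, and most Ewsr1 transcripts in both groups lacked it. The mean PSI changed by -0.094, and the log2 odds of inclusion by -0.95 (standard error 0.27, unadjusted p = 0.00392, adjusted p = 0.160 by edgeR's quasi-likelihood test), while the exact permutation test gave p = 0.1, its smallest value. The difference thus failed the correction over all events. The unadjusted p was 0.00485 to 0.0261 when each library was left out in turn and 0.0426 with limma.

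Behind these values stood 151, 96 and 113 inclusion counts and 382, 365 and 363 skipping counts in the controls. In the L-DL KD-labelled libraries there were 107, 93 and 81 inclusion counts and 584, 619 and 489 skipping counts. Skipping counts were higher in every library of the second group than in every control, while inclusion counts overlapped, and the second group also held more junction counts in all. The 95% Wilson interval of the lowest control PSI was 0.159 to 0.228 and that of the highest PSI in the second group was 0.118 to 0.168, which overlap. These intervals cover counting error only.

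**Figure D4:**
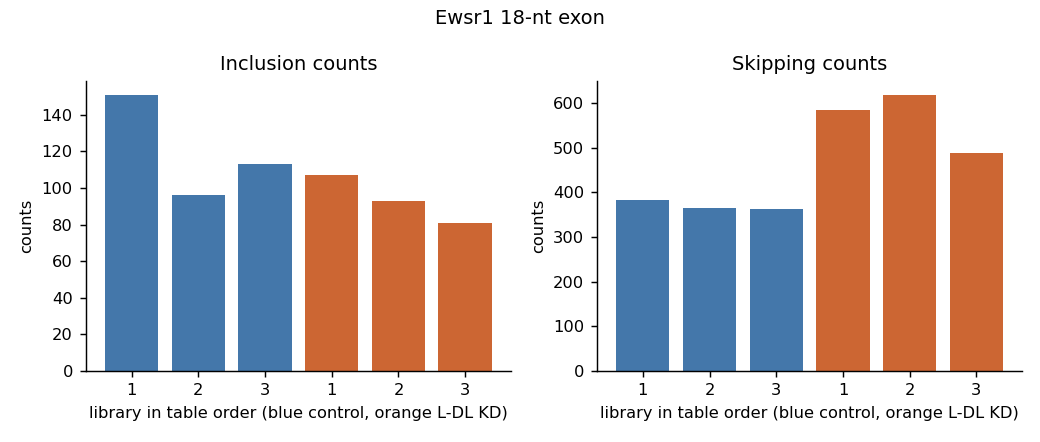
Junction counts (linear axes from 0) for the 18-nt exon of Ewsr1 in each library, with the inclusion form on the left and the skipping form on the right. Skipping counts were 363 to 382 in the controls and 489 to 619 in the L-DL KD-labelled libraries, while inclusion counts ran from 96 to 151 and from 81 to 107.

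The 35-nt exon shared by Ewsr1 and Taf15 was included in most transcripts of both. In Taf15 its PSI was 0.973, 0.911 and 0.959 in the controls and 0.929, 0.891 and 0.874 in the L-DL KD-labelled libraries, and 1 library of the second group lay inside the control range. The mean changed by -0.050 (unadjusted p = 0.0980, adjusted p = 0.474). Skipping counts were 3, 9 and 4 in the controls and 10, 16 and 16 in the second group. In Ewsr1 the PSI was 0.973, 0.969 and 0.936 against 0.965, 1 and 0.924 (adjusted p = 0.966). Here too the groups overlapped. Whether the exon of Taf15 responded differently from that of Ewsr1 was not tested.

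The tested Taf15 event with the most counts was its 130-nt exon 11 of Taf15-201 (chr11:83501115-83501244), with 2520 counts in all. Its PSI was 0.945, 0.944 and 0.976 in the controls and 0.954, 0.962 and 0.906 in the L-DL KD-labelled libraries, with overlapping groups (adjusted p = 0.819). The 120-nt segment of exon 15 was kept in most transcripts, with a PSI of 0.733, 0.784 and 0.825 in the controls and 0.788, 0.737 and 0.797 in the second group. This is listed as a retained intron although the annotation places it inside a coding exon, and its length keeps the reading frame either way. Its groups overlapped almost fully (change -0.007, adjusted p = 0.980).

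In Tardbp, all 13 tested events described splicing inside 1 exon, the last exon of Tardbp-202, which is 6410 nt long and codes in its first 528 nt. The introns begin at 1 of 3 closely spaced 5′ splice sites in the coding part and end beyond the stop codon, so that splicing removes the end of the coding sequence, which encodes the glycine-rich C-terminal domain of TDP-43, and the usual stop codon. The listed retained introns were 941, 959 and 1029 nt long. Events shared their junctions. The same 102 skipping counts stood behind 4 events and the same 34 behind another 4.

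Most Tardbp transcripts kept these introns in both groups. The event with the most counts, the 1029-nt intron, had a PSI of retention of 0.956, 0.959 and 0.979 in the controls and 0.970, 0.950 and 0.990 in the L-DL KD-labelled libraries, with overlapping groups (change 0.005, adjusted p = 0.937). The 959-nt intron, which ends at another 3′ site, was retained at 0.890, 0.915 and 0.898 against 0.904, 0.867 and 0.915 (adjusted p = 0.960). The 941-nt intron was retained at 0.936, 0.977 and 0.972 against 1, 0.968 and 0.987 (adjusted p = 0.578). None of the 3 introns lay apart between the groups, and their spliced forms rested on 102 counts or fewer over the 6 libraries.

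The largest mean change among the 27 tested events was in a Tardbp event listed as a choice between 5′ splice sites. It sets the first against the second site, 9 nt apart, for the intron that ends at the 3′ site nearest to the stop codon. The PSI of this event was 1, 1 and 0.874 in the controls and 0.913, 0.717 and 0.778 in the L-DL KD-labelled libraries, and the groups overlapped. The mean changed by -0.156 (unadjusted p = 0.137, adjusted p = 0.543 by edgeR, and an unadjusted p of 0.0482 with limma). The upstream site was joined in 0, 0 and 3 counts in the controls and in 3, 6 and 10 in the second group, where a count of 0 allows up to 3 counts. The same pair of sites joined to a 3′ site further downstream had a higher mean in the second group, with a PSI of 0.689, 0.508 and 0.674 against 0.666, 0.631 and 0.881 (adjusted p = 0.746). In both events the groups overlapped, and neither passed the adjusted test. The remaining Tardbp events, listed as 7 choices of 3′ site and 1 of 5′ site and counted in the same way, had unadjusted p-values from 0.357 to 0.862.

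**Figure D5:**
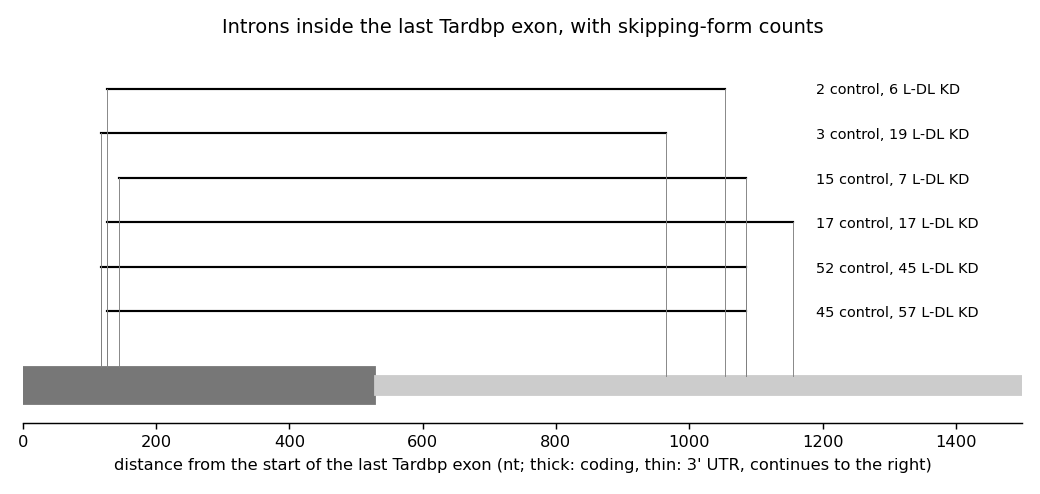
Map of the first part of the last exon of Tardbp-202, in nt from its start (thick, coding; thin, 3′ UTR), with each intron whose removal is a skipping form of a listed event and its counts summed over 3 control libraries and 3 L-DL KD-labelled libraries. Counts ran from 45 control against 57 L-DL KD down to 2 control against 6, and the 5′ ends lie close together inside the coding part.

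The event of Nono was a 504-nt retained intron (chrX:101444791-101445294), annotated as part of an exon only in the non-coding transcript Nono-204. Its PSI was 0.034, 0.040 and 0.052 in the controls and 0.032, 0.049 and 0.048 in the L-DL KD-labelled libraries, so that it was spliced out of nearly all transcripts. The groups overlapped (change 0.001, adjusted p = 0.982) with 2975 counts in all.

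In Matr3, 5 of the 10 events were tested. The one with the most counts, 5142, was a 122-nt exon, exon 14 of 15 of Matr3-201 and coding, whose length is not a multiple of 3. Its PSI was 0.858, 0.870 and 0.852 in the controls and 0.857, 0.795 and 0.714 in the L-DL KD-labelled libraries. The first library of the second group lay among the controls and the other 2 below them. The mean changed by -0.071 and the log2 odds of inclusion by -0.69 (standard error 0.32, unadjusted p = 0.0533, adjusted p = 0.385), and the size of the latter rested on single libraries of the second group. Without the first library the change in log2 odds was -0.996 (unadjusted p = 0.00516, adjusted p = 0.230), and without the third -0.354 (unadjusted p = 0.266, adjusted p = 0.743). The other tested Matr3 exons were included at 0.916 or more in every library, with changes from -0.026 to 0.013, and 2 of these events shared 1 segment of 1093 nt.

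The Pspc1 exons of 197 and 302 nt (exons 4 and 2 of the 9 exons of Pspc1-201) were skipped in 1 of 835 and 2 of 750 counts over the 6 libraries, so that no change could be tested at this depth. The same held for the 124-nt exon of Ewsr1, with 2 skipping counts of 7213, and for the 126-nt exon 8 of Matr3-201, with 1 of 4675.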

How the data were processed

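Hippocampal RNA of 3 control and 3 L-DL KD libraries was analysed, grouped by their labels. Raw counts of reads on each Ensembl gene were deposited by the authors, not normalized, from 150 nt read pairs aligned to GRCm38. The submitters' processing notes name mm10, HISAT2 (version 2.1.0), Bowtie (version 1.1.2) and HTSeq (version 0.6.1). The authors also deposited, per the file headers, rMATS (version 4.1.0) junction counts and effective form lengths as other values, beside p-values, FDR and inclusion differences of their own comparison, which were not used. The table names its groups only by number. Group 1 was taken as L-DL KD because differences are defined as KD minus control, and of 988 genes past 1.5-fold in gene counts 99.9% had the same sign in junction counts under that reading.

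For gene counts, edgeR's quasi-likelihood model (version 4.0.16, TMM scaling) was fitted to genes with 10 or more counts in 3 or more libraries and read at a Benjamini-Hochberg adjusted p under 0.05. The same model was fitted to the inclusion and skipping counts of the 6 libraries, 12 columns in all, with a term for every library and the change of inclusion between groups, for events averaging 20 or more counts a library and 1 or more of each form. Both were tested on simulated data. Alternatives used DESeq2 (version 1.42.0), limma (version 3.58.1, pseudocount 0.5), other scaling and filters, a block for replicate number and omission of each library. A choroid plexus covariate was added after the data were seen. R was version 4.3.3 and Python version 3.11.15. The replicate numbers did not pair the libraries, with correlations of same-numbered deviations of 0.0535, 0.127 and -0.107. Of the gene identifiers, 52403 of 52550 matched a symbol.

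The members, the lists and the paraspeckle genes were chosen with earlier results of these data known. Named were all 7 genes, their tested events with an unadjusted p under 0.05 or with groups apart by at least 0.05 in PSI, the tested event and the retained intron with the most counts of each gene, Neat1, and up to 6 list genes past the test in each direction. The 35-nt exons of Ewsr1 and Taf15, the other Tardbp and Matr3 events and the exons at the end were named after their values were seen. One gene of the paraspeckle list and 1 sequence are not reported here. No amino acid sequence and no sequence of Matr3 was used here.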

Additional observations from a re-analysis of the deposited data

How the results depend on the processing

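With another scaling, filter or tool, the 7 genes gave 2 to 4 calls beside the 3 reported, and all genes 5265 to 5525. The replicate block gave 2 calls among the 7 genes (Taf15 lost, adjusted p = 0.0563), 6 in the paraspeckle list (Hnrnpk lost, 1 other gained) and 4635 over all genes, with same-numbered libraries sharing only a number. No paired analysis was possible for splicing because the libraries of that table carry no replicate numbers. With the choroid plexus covariate, chosen after seeing the data, the 7 genes gave 3 calls, the list 7 and all genes 5538, and the log2 fold change was 0.08 for Tardbp and -0.21 for Sfpq. Without filtering, Taf15 had an adjusted p of 0.0630.

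Leaving out each library in turn gave 1 to 5 calls among the 7 genes (1 without any single control, 5 without L-DL KD replicate 1, where Ewsr1 and Pspc1 were added), 3 to 6 in the list and 3498 to 6477 over all genes. In splicing it gave 0 calls among the members, 1 to 2 of their events at an unadjusted p under 0.05, and 0 to 52 adjusted calls over all events beside the 48 reported. limma gave 2 member events at an unadjusted p under 0.05 and 0 adjusted calls over all events, and 1 event for each segment gave 59. The signs of values near 0 turned. The log2 fold change ran from -0.183 to 0.105 for Sfpq and from -0.127 to 0.150 for Hnrnpdl, and the change in log2 odds from -0.254 to 0.125 and -0.673 to 0.099 for the Taf15 120-nt segment and 130-nt exon, from -0.231 to 0.840 for the Tardbp 1029-nt intron and from -0.108 to 0.230 for the Nono intron. The cause was not tested. Fewer libraries also leave fewer degrees of freedom. PSI without effective lengths was computed for 6 events and moved each PSI change by less than the larger SD of its groups. Sparse skipping forms, with under 25 counts for several Tardbp introns, limit what could be seen in splicing.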
